A study of Mus musculus with 27 samples.

Results

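The comparison described here set mature 3T3-L1 adipocytes given rosiglitazone for 1 h against untreated adipocytes, across every gene measured. Its members were chosen by their labels alone: the 3 arrays of the 1 h group and the 3 untreated arrays, 6 of the 27 arrays of the series. 3T3-L1 is a mouse fibroblast line that becomes fat cells in culture. The cells were differentiated in 10% fetal bovine serum with 0.5 mM of the phosphodiesterase inhibitor 3-isobutyl-1-methylxanthine, 10 µg/ml insulin and 1 µM of the glucocorticoid dexamethasone for 2 days, then with insulin for 2 days, then in medium with neither. All arrays of both groups therefore came from cells with this same earlier exposure. The tested cells received 1 µM rosiglitazone, dissolved in DMSO, for 1 h, and the untreated cells carry the time 0. The arrays after 30 min and 2 h of the drug, 3 each, are used below as neighbouring times. Although the series' description speaks of a DMSO control, 0 samples carry that label, and an effect of the drug at 1 h cannot be told apart from one of its solvent or of handling. Whether the replicates were separate cultures is not stated in the labels, so each p-value rests on the spread among these arrays alone, and that spread may be technical.

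Rosiglitazone is a thiazolidinedione that binds and activates PPARγ, a nuclear receptor that pairs with a retinoid X receptor on DNA and is needed for a fat cell to form and to stay one. In adipocytes the pair sits at genes of fatty acid uptake, lipid droplets, glyceroneogenesis and fuel choice. The first transcripts to move after a ligand is added can come from such genes, and also from immediate early genes, whose mRNAs are short-lived and follow signalling and handling within minutes.

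Values are log2 intensities of the arrays, so that a change of 1 is 2-fold in signal. Array medians of the 6 arrays lay between 4.09 and 4.13, and no array was identical to another. Adipocyte markers were high, with a list mean between 11.36 and 11.43 in the 1 h arrays, against 11.29 to 11.35 in the untreated arrays. The macrophage list averaged 3.58 to 3.71 at 1 h and 3.64 to 3.71 in untreated cells, and the endothelial list 3.14 to 3.22 at 1 h and 3.10 to 3.20 in untreated cells. Preadipocyte and fibroblast markers averaged 7.63 to 7.79 at 1 h and 7.70 to 7.76 in untreated cells. Smooth muscle markers averaged 5.09 to 5.39 at 1 h and 5.13 to 5.20 in untreated cells. In none of these 5 marker lists, nor among 11 proliferation genes or 14 reference genes, did a gene pass the test. Of all genes tested, 0.99% passed the test described below. In bulk RNA, fewer cells of a type and less RNA per cell cannot be told apart.

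At 1 h the change was small in number. Of 18781 genes, 89 were higher and 97 lower than in untreated cells, 0.99% in all, at a Benjamini-Hochberg adjusted p below 0.05 with limma, 0.474% and 0.516% of the genes tested. An unadjusted p below 0.05 was reached by 1839 genes. The 3 arrays of one group lay beyond all 3 of the other for each of the 186 called genes, against 16.6% of all genes tested (6.9% with the 1 h arrays above and 9.67% with them below). The median change was 0.47 for the genes called higher and -0.45 for those called lower, and at least 1.5-fold was reached by 23 higher and 26 lower genes. A 2-fold change was reached by 7 higher genes and 3 lower ones. The typical standard error of a change was 0.088. The called genes had a median untreated level of 7.07 where higher and 6.15 where lower, against 4.80 over all genes. The number of genes called was 82 without 1 h replicate 3, 96 without untreated replicate 1, 122 without untreated replicate 2 and 109 without untreated replicate 3.

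**Figure D1:**
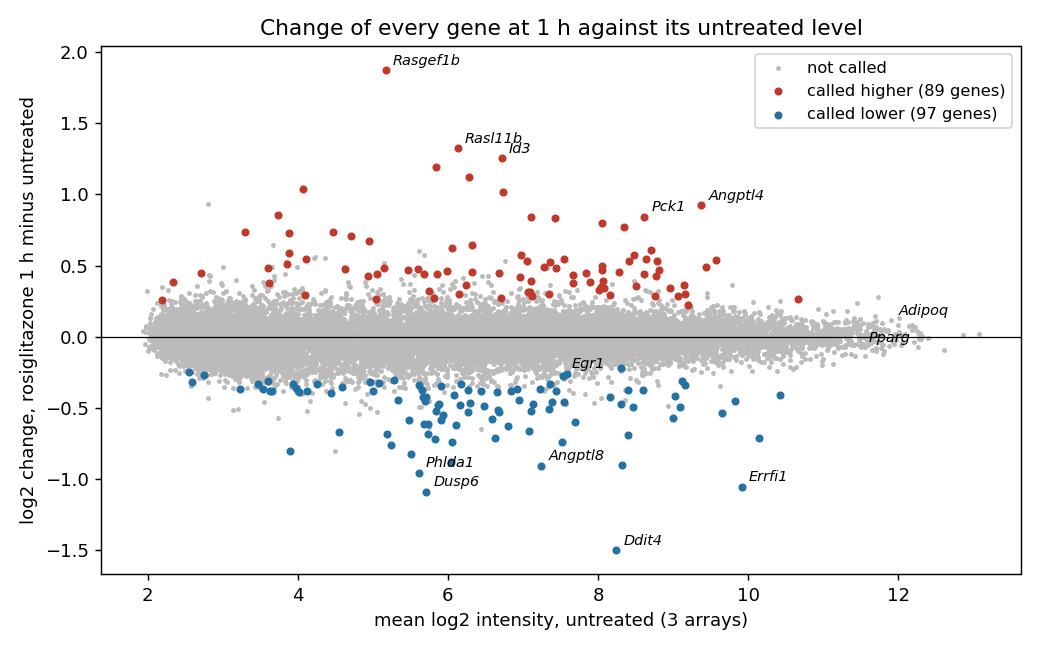
Each point is one of 18781 genes, placed by its mean log2 intensity in the 3 untreated arrays (x axis) and by its log2 change, rosiglitazone 1 h minus untreated (y axis). Red points are the 89 genes called higher and blue points the 97 called lower by limma at an adjusted p below 0.05, and they run from 1.87 for Rasgef1b down to -1.50 for Ddit4.

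Genes that PPARγ is known to control in fat cells mostly did not pass the test at this time. Of 46 genes on a list of PPARγ targets of lipid handling, 39 were measured, and 3 of these rose, Angptl4, Pck1 and Pdk4, while 0 fell. The other 36 did not pass, and of all genes 0.474% were called higher and 0.516% lower. The median change of the list was 0.11, against -0.01 over all genes. The count of 3 was 4 without untreated replicate 2 (Ucp3 added) and 3 without any other single array. It was 4 with quantile normalisation (Plin4 added). It was 5 with genes above the median mean alone or with a trended and robust variance (Fabp4 and Plin4 added). It was 6 with array weights (Fabp4, Plin4 and Ucp3 added). The mean level over the list, which includes the 3 called genes, ran from 8.65 to 8.77 in the 1 h arrays. It ran from 8.53 to 8.57 in the untreated arrays, without overlap. This was not particular to these genes. The mean of the heat shock list, with 0 called genes, was 8.53 to 8.55 at 1 h, against 8.60 to 8.62 in untreated cells.

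Angptl4 encodes a secreted inhibitor of lipoprotein lipase. Its log2 intensity was 10.23, 10.32 and 10.34 at 1 h, against 9.28, 9.40 and 9.43 in untreated cells, a difference of 0.92 ± 0.073 (SE, n = 3 each; limma adjusted p = 1.45e-08), or 1.90-fold. The lowest 1 h array stood well above the highest untreated array. Pck1, the cytosolic phosphoenolpyruvate carboxykinase that feeds glyceroneogenesis in fat, had 9.31, 9.45 and 9.62 at 1 h, against 8.43, 8.78 and 8.64 in untreated cells. It was higher by 0.84 ± 0.11 (limma adjusted p = 0.000109). Pdk4, a kinase that turns off pyruvate dehydrogenase and so spares glucose, had 8.26, 8.22 and 8.30 at 1 h, against 7.27, 7.45 and 7.56 in untreated cells, a difference of 0.83 ± 0.11 (limma adjusted p = 5.52e-05). The groups were apart for both genes, and the 1 h arrays of Pdk4 lay closer together than the untreated ones.

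The products of the mature adipocyte named here, abundant except for Hilpda, did not pass the test in the main fit. Fabp4, the fatty acid carrier of fat cells, had 11.61, 11.72 and 11.73 at 1 h, against 11.46, 11.41 and 11.47 in untreated cells, with a difference of 0.24 ± 0.062 and a limma adjusted p of 0.0664. Its arrays did not overlap, and it passed under 3 alternatives, with adjusted p-values of 0.0254 for genes above the median mean alone, 0.00736 with a trended and robust variance and 0.0187 with array weights. Cd36, the fatty acid translocase, differed by 0.20 (limma adjusted p = 0.39, 95% interval of the change 0.03 to 0.36 before adjustment). Adipoq, which encodes adiponectin, differed by 0.12 (limma adjusted p = 0.472, interval 0.01 to 0.23 before adjustment). Lpl, lipoprotein lipase, differed by 0.07 (limma adjusted p = 0.753, interval -0.05 to 0.19). For Cd36, Adipoq and Lpl too, every 1 h array was above every untreated one, as for 6.9% of all genes. The lipid droplet coat gene Plin2 differed by 0.03, with an interval of -0.13 to 0.18, and Hilpda, an inhibitor of lipolysis, by 0.11, with an interval of -0.09 to 0.30. All of these genes were near or above their untreated level, and none was lower.

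The receptor itself and its partners were also near their untreated level. Pparg had 11.42, 11.42 and 11.46 at 1 h, against 11.49, 11.52 and 11.51 in untreated cells. The difference was -0.07 ± 0.049 (limma adjusted p = 0.701, interval -0.17 to 0.03). Its 3 arrays at 1 h were all below the untreated ones. Rxra, the usual partner of PPARγ, differed by 0.06 (interval -0.10 to 0.22) and Nr1h3, the oxysterol receptor LXRα, by 0.05 (interval -0.12 to 0.23). Of 33 measured adipocyte transcription factors, 0 rose and 1 fell, against 0.474% and 0.516% of all genes. With genes above the median mean alone, 1 was higher and 2 were lower. The one that fell in the main fit was Cebpd, an early factor of fat cell differentiation. Its relatives Cebpa and Cebpb differed by 0.11 (adjusted p = 0.693) and 0.24 (adjusted p = 0.393). Among 17 nuclear receptor coregulators 1 rose, against the same 0.474% of all genes. It was Nrip1, a corepressor of metabolic genes also called RIP140. Nrip1 had 8.19, 8.35 and 8.34 at 1 h, against 7.86, 7.70 and 7.97 in untreated cells, a difference of 0.45 ± 0.084 (limma adjusted p = 0.00454).

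The highest increase of all genes belonged to Rasgef1b, an exchange factor that loads a Ras-family GTPase with GTP. It had 6.94, 7.18 and 7.01 at 1 h, against 5.03, 5.23 and 5.24 in untreated cells. The difference of 1.87 ± 0.094 (limma adjusted p = 1.98e-12) is 3.67-fold. The next was Rasl11b, a small GTPase of the Ras superfamily, with 7.61, 7.42 and 7.33 at 1 h, against 6.14, 6.15 and 6.10 in untreated cells (difference 1.32 ± 0.11, limma adjusted p = 1.45e-08). Both gaps between the groups were several times the spread within them. Of 29 measured Ras-like GTPases and their exchange factors, these 2 rose and 3 fell, against 0.474% and 0.516% of all genes. The ones that fell were Gem (-0.45), a GTPase that restrains calcium channels, Rasl10b (-0.37) and Rap2a (-0.34), and the median of the list was -0.07. Rasl10b was dim, with means of 3.16 at 1 h and 3.53 in untreated cells. The count of 3 was 1 without 1 h replicate 2, 1 h replicate 3 or untreated replicate 3, 2 without 1 h replicate 1 and 0 without untreated replicate 1. The call of Rasl10b ended without 1 h replicate 3 or untreated replicate 1, and the call of Gem ended without any one array but 1 h replicate 1 and untreated replicate 2, with adjusted p-values up to 0.122. Rap2a lost its call without any one array but 1 h replicate 3 and untreated replicate 2 (adjusted p up to 0.230).

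Members of pathways that set cell fate stood out singly. Id3, a helix-loop-helix protein that keeps basic helix-loop-helix factors off DNA, had 8.10, 8.003 and 7.81 at 1 h, against 6.89, 6.69 and 6.57 in untreated cells. It was higher by 1.26 ± 0.12 (limma adjusted p = 2.43e-07), whereas its relatives Id1, Id2 and Id4 differed by -0.06, 0.34 and -0.03 and did not pass. Of 30 measured BMP and TGF-beta targets and Id factors, 2 rose and 2 fell, against 0.474% and 0.516% of all genes. Id3 and the inhibitory Smad6 (0.32) rose, and the repressors Hes1 (-0.47) and Snai1 (-0.51) fell. Smad6 lost its call without any one array but 1 h replicate 2 and untreated replicate 2 (adjusted p up to 0.203), and Snai1 without any one but 1 h replicate 1 (adjusted p up to 0.379). Hes1 lost its call without 1 h replicate 3 or untreated replicate 3 (adjusted p up to 0.087). With single arrays left out, the list held 1 to 2 higher and 0 to 3 lower genes. Fzd5, a Wnt receptor, had 6.99, 7.11 and 6.99 at 1 h, against 5.90, 5.84 and 5.78 in untreated cells (difference 1.19 ± 0.083, limma adjusted p = 1.81e-09). It was the one called gene of 40 measured Wnt receptors, antagonists and targets. Amotl2, an angiomotin that binds YAP and is one of its targets, was the one called gene of 22 in the Hippo and YAP list, with 9.24, 8.98 and 9.13 at 1 h, against 8.30, 8.39 and 8.33 in untreated cells (difference 0.77 ± 0.069, limma adjusted p = 1.21e-07). For Id3, Fzd5 and Amotl2 every 1 h array was above every untreated one.

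Other large increases had varied roles. Slc25a25, a mitochondrial carrier of ATP-Mg and phosphate, had 7.26, 7.53 and 7.42 at 1 h, against 6.08, 6.30 and 6.47 in untreated cells, and rose by 1.12 ± 0.11 (limma adjusted p = 4.8e-07). Osgin1, an oxidative stress response gene that restrains growth, rose by 1.02 ± 0.14 (limma adjusted p = 8.33e-05). Both were apart between the groups. Mir378a lies within Ppargc1b, which encodes the coactivator PGC-1β. Its probe set had 4.92, 5.27 and 5.12 at 1 h, against 4.05, 4.20 and 3.93 in untreated cells (difference 1.04 ± 0.15, limma adjusted p = 0.000299), while the probe set of Ppargc1b differed by 0.19 (adjusted p = 0.453). Whether the microRNA's probes also read the host transcript was not tested. Traf5, an adaptor of tumour necrosis factor receptors, rose by 0.65 ± 0.094 (limma adjusted p = 0.000293) and Klf11 by 0.48 ± 0.084 (adjusted p = 0.00237), the one called gene of 17 Krüppel-like factors. Some dim genes had calls that rested on single arrays. The potassium channel gene Kcnh4 (0.74) lost its call without any one array but 1 h replicate 2 and untreated replicate 2 (adjusted p up to 0.250), and 2310001K24Rik (0.86) without any one but 1 h replicate 1 (adjusted p up to 0.208). Thbs1, thrombospondin 1 and the one called gene of 29 matrix genes, was higher by 0.57 and lost its call without 1 h replicate 1, 1 h replicate 2 or untreated replicate 1 (adjusted p up to 0.123). The single calls among 17 Krüppel-like factors and 29 matrix genes stand beside 0.474% of all genes called higher and 0.516% called lower.

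**Figure D2:**
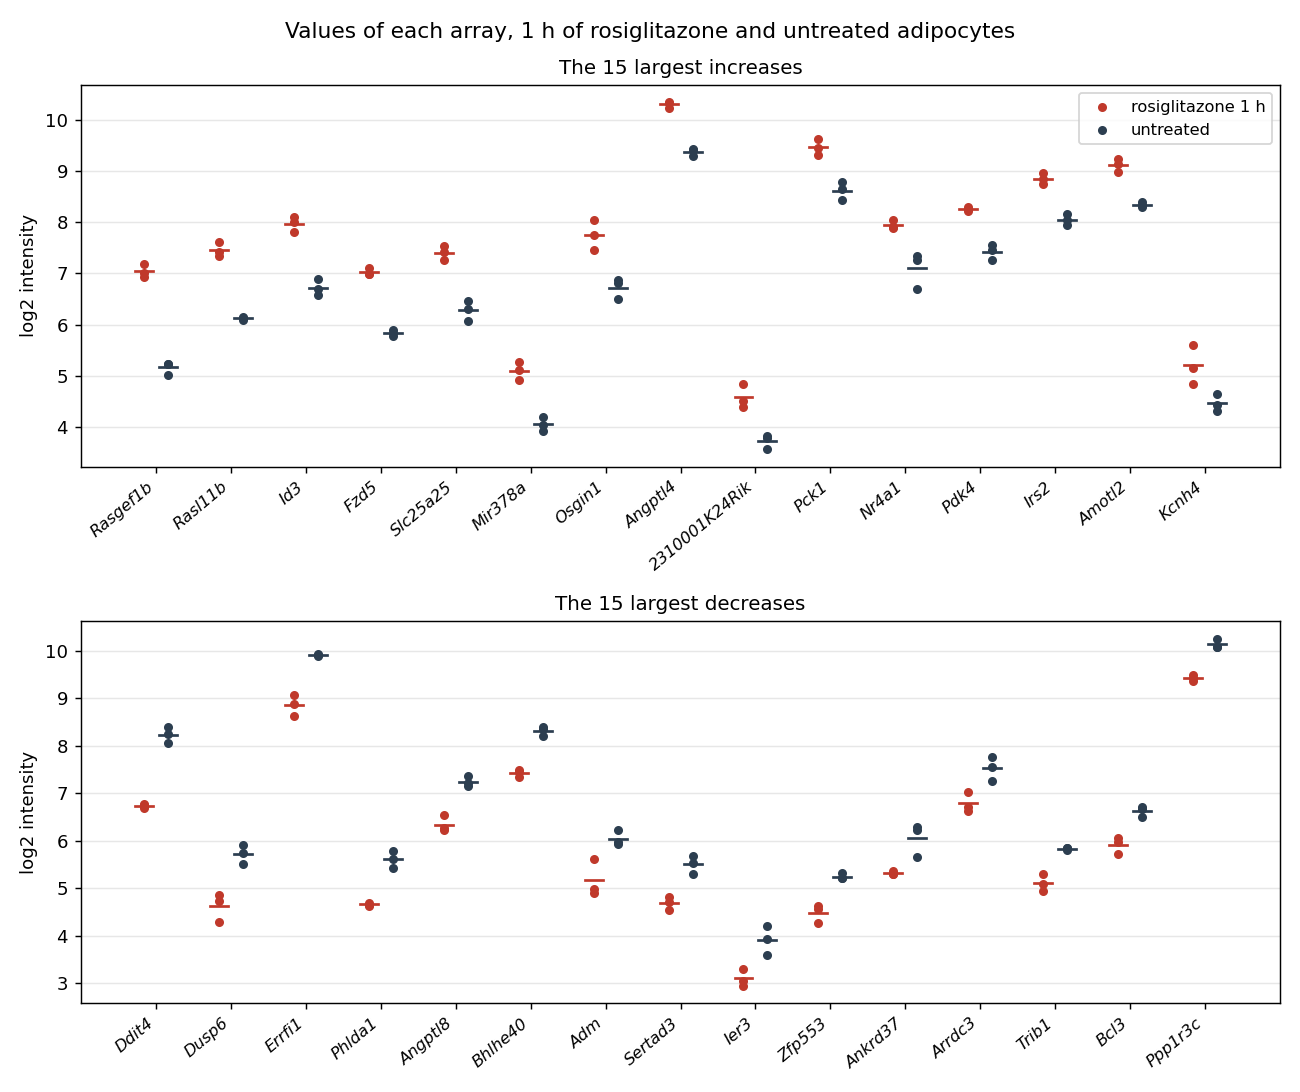
Log2 intensity (y axis) of single arrays for the 15 called genes with the highest and the 15 with the lowest change, with rosiglitazone 1 h in red to the left of untreated in dark blue for each gene, 3 points each and the mean as a bar. The genes were chosen among called genes whose groups do not overlap. Ddit4 runs between 6.68 and 6.77 at 1 h, against 8.06 to 8.41 in untreated cells.

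The largest decrease was that of Ddit4, which encodes REDD1, an inhibitor of the growth kinase complex mTORC1. It had 6.76, 6.68 and 6.77 at 1 h, against 8.41, 8.06 and 8.24 in untreated cells. The difference was -1.50 ± 0.17 (limma adjusted p = 5.01e-06), 2.83-fold lower. The 3 arrays at 1 h were nearly equal and lay far below the untreated ones. Ddit4 is listed both among hypoxia-responsive and among glucocorticoid-responsive genes. Of 27 hypoxia-responsive genes, 5 fell and 1 rose, against 0.516% and 0.474% of all genes, with a median of -0.11. Besides Ddit4, the clock-linked repressor Bhlhe40 fell by 0.90 on the log2 scale, the vasodilator peptide gene Adm by 0.88, Ankrd37 by 0.74 and the hexokinase gene Hk2 by 0.31, whereas Pfkfb3, which makes the activator of phosphofructokinase, rose by 0.53. Vegfa, a standard member of this list, differed by 0.12 (adjusted p = 0.629). The mean level of the list, which includes the called genes, was 8.19 to 8.25 in the 1 h arrays, against 8.42 to 8.45 in the untreated arrays. As given above, the mean of the heat shock list, with 0 called genes, was also lower at 1 h without overlap. The count of 5 lower genes was 3 without 1 h replicate 1, 1 h replicate 2 or untreated replicate 3, and 2 without 1 h replicate 3 or untreated replicate 1. Adm lost its call without 1 h replicate 3 or untreated replicate 1 (adjusted p up to 0.0787), Pfkfb3 without 1 h replicate 3 (adjusted p = 0.086) and Ankrd37 without any one array but untreated replicate 2 (adjusted p up to 0.134). Hk2 lost its call without each of the 6 arrays in turn (adjusted p up to 0.279).

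Of 22 glucocorticoid-responsive genes, 5 fell and 0 rose, against 0.516% and 0.474% of all genes, and the median of the list was -0.04. They were Ddit4, the receptor inhibitor gene Errfi1 (-1.05), Cebpd (-0.68), the clock gene Per1 (-0.60) and Rgs2 (-0.41), which shortens G protein signals. Cebpd had 4.61, 4.67 and 4.23 at 1 h, against 5.29, 5.09 and 5.17 in untreated cells (limma adjusted p = 0.0063), and lost its call without 1 h replicate 3 or untreated replicate 1 (adjusted p up to 0.0874). Rgs2 lost its call without the same arrays (adjusted p up to 0.0967). The list held 2 lower genes without 1 h replicate 3 and 3 without untreated replicate 1. Its mean level, which includes the 5 called genes, was 7.93 to 8.02 at 1 h, against 8.13 to 8.18 in untreated cells. Several lists share called genes, among them Ddit4, Errfi1, Cebpd, Per1 and Bhlhe40. The lists were also written with earlier results of these data known, so the counts of different lists are not separate results.

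Of 16 measured genes of the circadian clock, 4 fell and 0 rose, against 0.516% and 0.474% of all genes, with a median of -0.11. Nfil3, a repressor of D-box genes, had 6.45, 6.37 and 6.42 at 1 h, against 7.05, 7.07 and 7.11 in untreated cells (difference -0.66 ± 0.081, limma adjusted p = 2.5e-05). Ciart, a repressor of the clock's activators, had 6.19, 6.18 and 6.16 at 1 h, against 6.73, 6.83 and 6.85 in untreated cells (difference -0.62 ± 0.11, limma adjusted p = 0.00237), and its other probe set was lower too (-0.73, adjusted p = 0.00378 over probe sets). Bhlhe40 had 7.50, 7.33 and 7.44 at 1 h, against 8.39, 8.36 and 8.21 in untreated cells. In all 3 genes the groups were far apart relative to the spread within them. Per1, with 7.11, 7.22 and 6.95 at 1 h against 7.59, 7.83 and 7.65 in untreated cells, lost its call without 1 h replicate 3 or untreated replicate 2 (adjusted p up to 0.0787). Arntl, the activator of the clock, differed by 0.15 (adjusted p = 0.562). The time of day at which each group was collected is not given in the sources used here and cannot be told apart from the drug.

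Genes that dampen MAP kinase signalling were mostly lower where they moved. Of 25 measured feedback inhibitors and targets of this pathway, 4 fell and 1 rose, against 0.516% and 0.474% of all genes, with a median of -0.05. Dusp6, the cytoplasmic phosphatase of ERK, had 4.28, 4.73 and 4.86 at 1 h, against 5.50, 5.73 and 5.90 in untreated cells (difference -1.09 ± 0.17, limma adjusted p = 0.000689). Errfi1, which encodes MIG6, an inhibitor of the EGF receptor, had 8.88, 9.08 and 8.63 at 1 h, against 9.90, 9.93 and 9.92 in untreated cells (difference -1.05 ± 0.095, limma adjusted p = 1.44e-07). The untreated arrays of Errfi1 were almost equal, and all 1 h arrays were well below them. Phlda1, with 4.63, 4.69 and 4.64 at 1 h against 5.42, 5.62 and 5.79 in untreated cells, fell by 0.95 on the log2 scale (limma adjusted p = 6.81e-06). Dusp7, another ERK phosphatase, differed by -0.38 and lost its call without any one array but 1 h replicate 2 and untreated replicate 3 (adjusted p up to 0.0715). The gene that rose was Spry4, a Sprouty inhibitor of receptor signalling, by 0.61 ± 0.14 (adjusted p = 0.0268). Spry4 lost its call without any one array but 1 h replicate 1 and untreated replicate 2 (adjusted p up to 0.204). The best known immediate early product of this pathway, Fos, differed by -0.06 (interval -0.47 to 0.35), and Egr1 had 7.12, 7.84 and 6.93 at 1 h, against 6.93, 7.74 and 7.996 in untreated cells. The groups overlapped for both.

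Immediate early genes as a whole moved in both directions. Of 39 measured, 3 rose and 4 fell, against 0.474% and 0.516% of all genes, and the median was -0.16. The nuclear receptor Nr4a1 had 7.90, 8.05 and 7.88 at 1 h, against 6.69, 7.34 and 7.27 in untreated cells (difference 0.84 ± 0.20, limma adjusted p = 0.0309). Its call ended without any one array but untreated replicate 2, with adjusted p-values up to 0.228. Btg2, which promotes mRNA deadenylation and slows growth, rose by 0.53 ± 0.072 (limma adjusted p = 0.000108), and Gadd45g, a growth arrest gene, by 0.50 (adjusted p = 0.0242), with its call lost without any one array but replicate 1 of either group (adjusted p up to 0.194). Jun, the AP-1 subunit, had 7.91, 8.15 and 7.83 at 1 h, against 8.44, 8.41 and 8.53 in untreated cells (difference -0.49 ± 0.073, limma adjusted p = 0.000321). Ier3 (-0.80), the mRNA decay factor Zfp36l2 (-0.45) and Rgs2 fell as well. Ier3 was dim, with means of 3.09 at 1 h and 3.90 in untreated cells, against a median untreated level of 4.80 over all genes. Ier3 lost its call without 1 h replicate 3, untreated replicate 1 or untreated replicate 3 (adjusted p up to 0.105). The list held 2 higher genes without 1 h replicate 1, untreated replicate 1 or untreated replicate 2, and 1 without 1 h replicate 2, 1 h replicate 3 or untreated replicate 3. It held 2 lower genes without 1 h replicate 3 or untreated replicate 1, and 8 with array weights.

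Genes of cAMP signalling were split as well. Of 18 targets of cAMP and of its transcription factor CREB, Nr4a1 and Slc25a25 rose, while Per1, Gem and Sik1 fell. Of all genes, 0.474% were called higher and 0.516% lower. The median of the list was 0.02, or -0.01 without 1 h replicate 1. Sik1, a kinase that holds CREB coactivators in the cytoplasm, had 8.71, 8.62 and 8.47 at 1 h, against 8.99, 9.14 and 9.15 in untreated cells (difference -0.49 ± 0.091, limma adjusted p = 0.00429). Its call ended without 1 h replicate 3 (adjusted p = 0.0589), and without that array the list held 0 lower genes.

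The promoters of Pck1, Rasgef1b, Nr4a1 and Errfi1 are shown because they carry letters that CREB is known to bind and belong to genes with opposite changes, with Pck1 a classic target of both PPARγ and cAMP. Each run gives 250 bases before and 50 after a RefSeq transcript start on the GRCm38.p6 build, 5′ to 3′ on the gene's strand, and capitals mark the core TGACG of the cAMP response element on either strand and the TATA box TATAAA on either strand; where cores overlap, as in the full element TGACGTCA, the capitals run on. Pck1 is at chr2:173152823-173153122 on the plus strand, Rasgef1b at chr5:99252878-99253177 on the minus strand, Nr4a1 at chr15:101266596-101266895 on the plus strand and Errfi1 at chr4:150854820-150855119 on the plus strand.
Pck1: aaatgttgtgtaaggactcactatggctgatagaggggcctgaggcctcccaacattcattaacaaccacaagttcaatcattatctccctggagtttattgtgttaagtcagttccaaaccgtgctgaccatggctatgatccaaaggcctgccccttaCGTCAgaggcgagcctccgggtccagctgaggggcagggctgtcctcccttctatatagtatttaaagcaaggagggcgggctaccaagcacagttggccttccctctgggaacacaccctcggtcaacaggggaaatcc
Rasgef1b: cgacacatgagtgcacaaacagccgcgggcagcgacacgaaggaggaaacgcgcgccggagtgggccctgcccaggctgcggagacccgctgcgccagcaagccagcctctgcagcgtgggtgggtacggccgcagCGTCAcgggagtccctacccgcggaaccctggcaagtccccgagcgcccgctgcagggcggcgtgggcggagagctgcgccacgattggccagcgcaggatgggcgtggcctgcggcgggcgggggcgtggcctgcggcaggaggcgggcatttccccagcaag
Nr4a1: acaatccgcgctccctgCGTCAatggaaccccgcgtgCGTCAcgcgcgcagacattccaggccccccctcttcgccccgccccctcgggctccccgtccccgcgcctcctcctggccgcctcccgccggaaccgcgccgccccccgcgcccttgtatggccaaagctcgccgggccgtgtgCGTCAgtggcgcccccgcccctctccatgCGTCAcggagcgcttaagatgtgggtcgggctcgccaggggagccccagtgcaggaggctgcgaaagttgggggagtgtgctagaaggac
Errfi1: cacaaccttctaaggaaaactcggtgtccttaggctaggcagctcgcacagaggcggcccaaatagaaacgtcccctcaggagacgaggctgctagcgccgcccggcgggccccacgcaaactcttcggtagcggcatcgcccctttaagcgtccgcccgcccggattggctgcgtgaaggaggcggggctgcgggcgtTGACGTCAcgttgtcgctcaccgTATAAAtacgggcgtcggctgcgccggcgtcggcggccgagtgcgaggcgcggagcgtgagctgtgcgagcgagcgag
The windows of Pck1 and Rasgef1b held 1 core each, that of Nr4a1 held 4, and that of Errfi1 held 1 full element and a TATA box. A different start of Errfi1, at chr4:150853546-150853845, held neither. Among all genes with a window, the core stood in 27.8% of 79 windows of genes called higher. It stood in 26.6% of 94 windows of genes called lower and in 25.1% of all 18124 windows. In the same order, the full element TGACGTCA stood in 2.53%, 1.06% and 2.42%, and the TATA box in 6.33%, 11.7% and 11.6%. The PPAR core AGGTCA, searched on both strands, stood in 13.9% of the windows of higher genes, 7.45% of those of lower genes and 14.3% of all. The full direct repeat AGGTCANAGGTCA stood in 0 windows of either set and in 0.0441% of all, and many PPARγ sites are known to lie outside promoters. The hypoxia response core ACGTG stood in 20.3% of the windows of higher genes, 30.9% of those of lower genes and 21.8% of all. A match of letters is a description of these windows, and no difference between these shares was tested.

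Genes of insulin action included both a rise and a fall. Irs2, the docking protein below the insulin receptor, had 8.74, 8.95 and 8.84 at 1 h, against 7.94, 8.16 and 8.05 in untreated cells (difference 0.80 ± 0.077, limma adjusted p = 4.01e-07). Angptl8, an insulin-induced partner of the other angiopoietin-like inhibitors of lipoprotein lipase, had 6.21, 6.27 and 6.53 at 1 h, against 7.36, 7.21 and 7.16 in untreated cells, and fell by 0.91 on the log2 scale (limma adjusted p = 7.75e-05). Angptl4 and Angptl8 thus moved in opposite directions by nearly the same size, and they were the called genes among 21 adipokines. Trib1, a pseudokinase that steers C/EBP proteins to degradation, fell by 0.72 (adjusted p = 0.0134) and lost its call without any one array but replicate 2 of either group (adjusted p up to 0.0966). The 29 measured genes of insulin signalling and FOXO targets held these 3 calls, against 0.99% of all genes called, and their median was -0.05. With genes above the median mean alone 2 were higher and 4 lower. Ppp1r3c, which brings protein phosphatase 1 to glycogen, had 9.50, 9.44 and 9.36 at 1 h, against 10.26, 10.09 and 10.09 in untreated cells (difference -0.71 ± 0.075, limma adjusted p = 1.76e-06). Leptin mRNA, Lep, had 5.40, 5.11 and 5.39 at 1 h, against 6.02, 5.55 and 5.25 in untreated cells, and its groups overlapped.

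Further decreases were found in genes of transcription and signal control. Bcl3, a coregulator of NF-κB, had 5.71, 5.97 and 6.07 at 1 h, against 6.50, 6.70 and 6.67 in untreated cells (difference -0.71 ± 0.13, limma adjusted p = 0.00315). Tnfaip3, which encodes the NF-κB inhibitor A20, fell by 0.59 on the log2 scale (adjusted p = 0.00315). It was the one called gene of 27 inflammatory genes, against 0.474% of all genes called higher and 0.516% called lower. Cited2, which competes with the hypoxia factor HIF-1 for its coactivator, had 9.29, 9.20 and 8.87 at 1 h, against 9.68, 9.64 and 9.64 in untreated cells (difference -0.53 ± 0.093, limma adjusted p = 0.00222). For Bcl3, Tnfaip3 and Cited2 all 1 h arrays were below all untreated ones. Sertad3, a transcriptional coregulator, fell by 0.82 ± 0.11 (limma adjusted p = 0.000112). Arrdc3, an arrestin-domain protein that acts on β-adrenergic receptors, was lower by 0.74 and lost its call without 1 h replicate 3 or untreated replicate 1 (adjusted p up to 0.0715).

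Several programmes of the fat cell held 0 called genes at 1 h, in either direction, by limma after adjustment. Of all genes, 0.474% were called higher and 0.516% lower, and at these shares lists of this size would hold few calls or none. These were lipolysis and its receptors (14 measured, changes between -0.26 and 0.22), de novo lipogenesis and triglyceride synthesis (22 genes, -0.14 to 0.10), cholesterol synthesis (17 genes, -0.29 to 0.18, with 1 gene higher under 3 alternatives) and brown and beige fat genes (17 genes, -0.12 to 0.15). The same held for 26 subunits of oxidative phosphorylation, between -0.19 and 0.09, and for 10 heat shock and chaperone genes, between -0.23 and 0.10. Ucp1, the uncoupling protein of brown fat, was dim at 2.88, 2.77 and 2.76 in the 1 h arrays, against 2.69, 2.76 and 2.89 in untreated cells. The amino acid stress and interferon lists held 1 lower gene each, Creld2 (-0.22) and Oasl2 (-0.32), of which Creld2 lost its call without any one array but untreated replicate 1 (adjusted p up to 0.159) and Oasl2 without any one but 1 h replicate 1 and untreated replicate 2 (adjusted p up to 0.143).

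**Figure D3:**
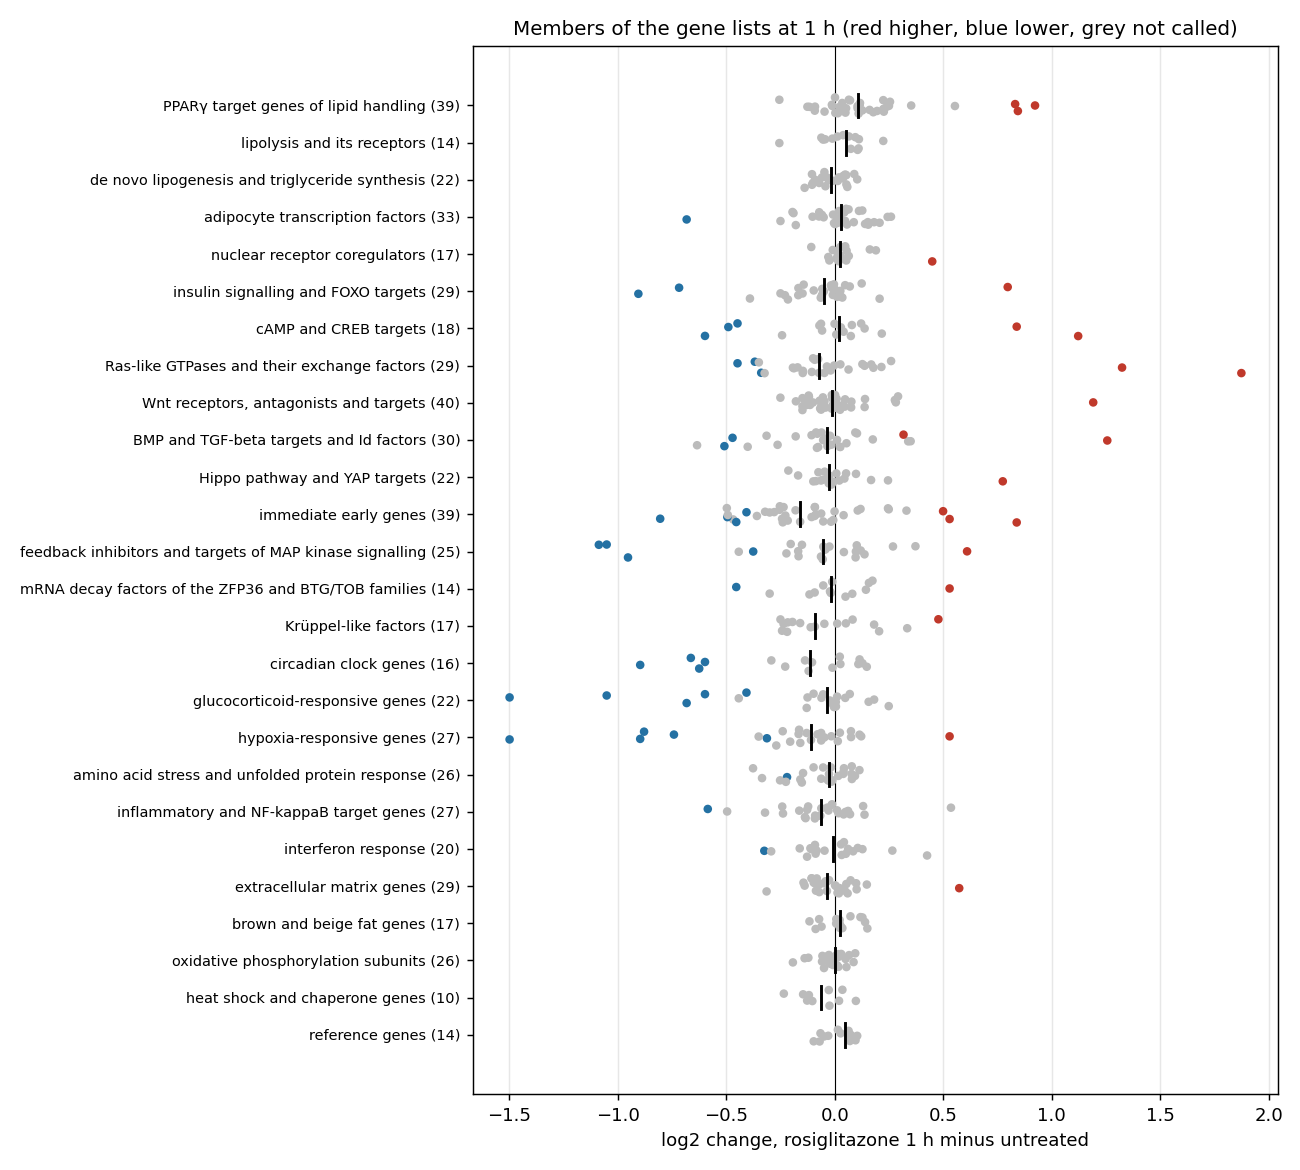
Each point is a gene, placed on the x axis by its log2 change, rosiglitazone 1 h minus untreated, in a row for its list, with the number of measured genes in brackets and a black bar at the median of the list; some genes are in several lists. Red points were called higher and blue points lower, with 3 red points among 39 PPARγ targets and 5 blue points among 22 glucocorticoid-responsive genes, and grey points were not called. Of all genes, 0.474% were called higher and 0.516% lower.

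The neighbouring times placed these changes in the first 2 h of the drug. The comparisons of 30 min, 1 h and 2 h with untreated share the untreated arrays, and those of 1 h with 30 min and of 2 h with 1 h share the 1 h arrays. Against untreated, limma called 9 genes at 30 min (0.0479%), 186 at 1 h (0.99%) and 1110 at 2 h (5.91%). Between 30 min and 1 h, 35 genes were higher and 82 lower at 1 h (0.186% and 0.437%, 0.623% in all). Between 1 h and 2 h, 184 were higher and 170 lower at 2 h (0.98% and 0.905%, 1.88% in all). The 117 calls between 30 min and 1 h were 57, 67 and 30 without 1 h replicates 1, 2 and 3 in turn, 52 without 30 min replicate 1 and 13 without 30 min replicate 2. The 354 calls between 1 h and 2 h were 188 without 1 h replicate 1, 178 without 1 h replicate 2, 195 without 2 h replicate 2 and 147 without 2 h replicate 3.

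A difference that uses neither the 1 h nor the untreated arrays is given by 2 h against 30 min, a comparison added after the data were seen. Of the 89 genes called higher at 1 h, 55 were higher and 1 was lower at 2 h than at 30 min, against 2.25% and 2.91% of all genes (5.16% called in either direction), with a median difference of 0.40. Of the 97 genes called lower at 1 h, 51 were lower and 0 higher, with a median of -0.34. The median of all genes was -0.01. The 55 genes are 61.8% of the 89 and 13.0% of the 423 genes higher at 2 h than at 30 min, and the 51 are 52.6% of the 97 and 9.32% of the 547 genes lower. All 4 groups of arrays share the model's estimate of spread, so the 30 min and 2 h arrays also helped to set which 1 h genes were called.

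Individual genes took different courses. Rasgef1b was above untreated by 0.59 at 30 min, 1.87 at 1 h and 1.78 at 2 h, so that it rose further between 30 min and 1 h (1.29, limma adjusted p = 9.59e-09), with no difference called after that (-0.09, adjusted p = 0.762). Pck1 was above untreated by 0.36, 0.84 and 1.45 at the 3 times, the first not called (adjusted p = 0.447), and both later steps passed the test (0.49, adjusted p = 0.0467, and 0.60, adjusted p = 0.004). Id3 went back, with 0.85 at 30 min, 1.26 at 1 h and 0.40 at 2 h, and its fall between 1 h and 2 h was -0.86 ± 0.12 (limma adjusted p = 0.000142). Ddit4 differed from untreated by -0.48, -1.50 and -0.61 at 30 min, 1 h and 2 h, the first not called (adjusted p = 0.483), and the fall to 1 h (-1.02, adjusted p = 0.00283) and the recovery at 2 h (0.89, adjusted p = 0.00342) both passed. Errfi1 and Dusp6, not called at 30 min (-0.19, adjusted p = 0.652, and -0.18, adjusted p = 0.800), fell further after 1 h, to -1.81 and -1.78 at 2 h, with steps of -0.76 (adjusted p = 6.04e-05) and -0.69 (adjusted p = 0.0332). Bhlhe40 was lower at 1 h than at 30 min (-0.87, adjusted p = 0.00253), and its difference of 0.50 between 2 h and 1 h missed the threshold (adjusted p = 0.0634).

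Some genes changed further or first after 1 h. Pparg, near its untreated level at 1 h, was lower at 2 h than at 1 h by -0.56 ± 0.049 (limma adjusted p = 5.07e-07). Egr1, whose groups overlapped at 1 h, was lower at 2 h than at 1 h by -1.45 ± 0.30 (adjusted p = 0.00983). Pfkfb3 rose by a further 0.72 ± 0.10 (adjusted p = 0.000231) and Bcar3, an adaptor of focal adhesion signalling, by 0.61 ± 0.074 (adjusted p = 5.14e-05). A turn at 1 h was found in 3 genes, Ddit4, Zfp553, which encodes a zinc finger protein, and Gpr146, an orphan receptor, which were lower at 1 h than in untreated cells, than at 30 min and than at 2 h, each by its own test. Zfp553 had 4.27, 4.55 and 4.62 at 1 h, against 5.31, 5.20 and 5.20 in untreated cells, and at 2 h it was 0.05 from the untreated level.

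**Figure D4:**
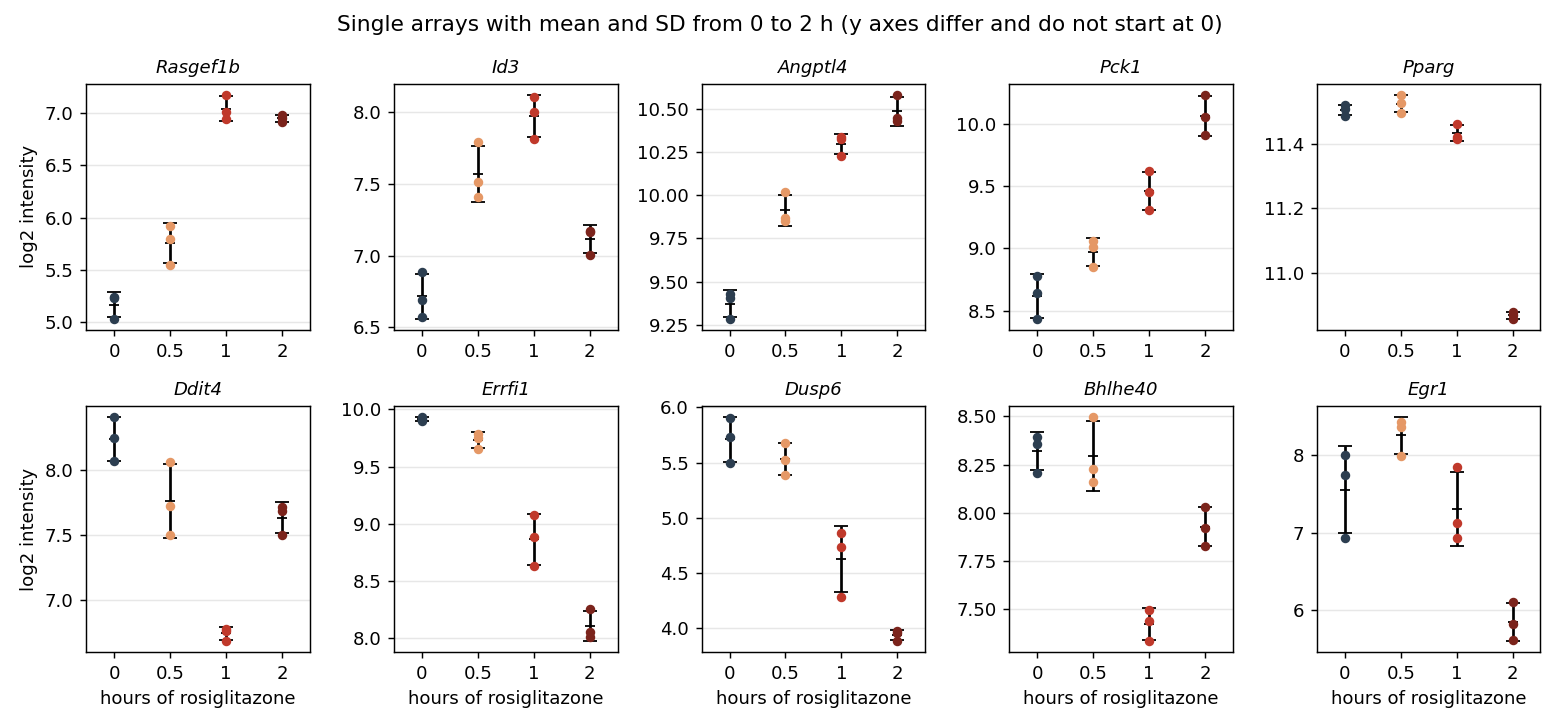
Log2 intensity (y axis) of single arrays for 10 genes in untreated cells (0 h) and after 0.5, 1 and 2 h of rosiglitazone (x axis, evenly spaced), 3 arrays at each time, with mean and SD as black bars and a y axis of its own for each gene. Rasgef1b levels off after 1 h, Id3 and Ddit4 turn back by 2 h, Errfi1 and Dusp6 are lower at 1 h than at 0.5 h and lower again at 2 h, and Pparg is lower at 2 h.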

How the data were processed

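RNA of 27 samples of 3T3-L1 cells, 3 in each of 9 groups, was hybridised to Affymetrix gene arrays, and the 6 arrays of the 1 h and untreated groups were compared. The values deposited by the authors are log2 intensities, 1 per probe set. Partek and RMA, a background correction, normalisation and summary of probes, are named per the submitters' processing notes, without versions. The genome build of the array annotation is not given in the sources used here. Of 28815 probe sets, 21153 carried 1 gene symbol, 1867 several and 5795 none, and 21123 matched an Entrez identifier with 0 symbols changed. For 1367 genes with several probe sets, the one with the highest mean over all arrays was kept, which left 18781 genes, with no filter on dim ones. The model had 1 mean per group over all 27 arrays and no covariate, and used lmFit and eBayes of limma 3.58.1 (R 4.3.3). P-values were two-sided and adjusted by Benjamini-Hochberg over all genes of a comparison, and an adjusted p below 0.05 was a call. The number of arrays limits the precision. Intervals of a change are 95% intervals of the moderated fit for a single gene. Promoters are RefSeq sequences on GRCm38.p6. Tables and figures were made with Python 3.11.15, pandas 2.3.3, numpy 2.4.6 and matplotlib 3.10.9, and the test was tried on simulated data. 

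The genes described were drawn from a set chosen by rules. The set holds the 15 highest and 15 lowest called genes whose arrays did not overlap, and up to 4 called genes of each list by smallest p. It also holds up to 8 in each direction of the other comparisons with 1 h, and a panel of adipocyte genes. Rap2a, Spry4, Hk2 and Rgs2 were named to complete small counts of their lists, Id1, Id2, Id4, Vegfa, Arntl and Ppargc1b are values beside a described member, Plin4 and Ucp3 are the PPARγ targets that other settings add, and Gpr146 was chosen after its values were seen. The comparison and the lists were chosen with earlier results of these data known. Alternatives were the replicate number as a block, array weights, centring, quantile normalisation, other variance settings, the mean of probe sets, a filter on dim genes, a minimum fold, the compared arrays alone, and each array left out.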

Additional observations from a re-analysis of the deposited data

Results flagged for a closer look

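Of the 186 genes called at 1 h against untreated, 14 also differed by test (limma, adjusted over all genes) from both the 30 min and the 2 h value. Against untreated, the 1 h change was 0.84 for Pck1, 0.65 for Traf5, 0.62 for Grhl1, 0.55 for Rnf144b, 0.49 for Cdr2, 0.46 for Iffo2 and 0.46 for Bcar3, and each of these 7 was higher again at 2 h. It was -0.45 for Zfp36l2, -0.53 for Cited2, -1.05 for Errfi1 and -1.09 for Dusp6, and these 4 were lower again at 2 h. It was -0.44 for Gpr146, -0.76 for Zfp553 and -1.50 for Ddit4, which were nearer to their untreated level at 2 h. The comparisons share the 1 h arrays.

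Probe sets with no gene symbol or with several were outside the comparison of genes. Of these, 15 were called higher and 10 lower at 1 h than in untreated cells, 25 in all: 0.397% of the 5795 sets with no symbol and 0.107% of the 1867 with several, against 0.742% of the 21153 sets with 1 symbol. The largest increase among them was 0.93, in probe set 10555087, with means of 5.86 at 1 h and 4.93 in untreated cells.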

How the results depend on the processing

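No gene chosen by the rules given above that passed the test in the main fit or under an alternative changed direction between these fits. For genes that passed in neither, a change of sign was not counted. List medians near 0 changed sign: 14 of the 34 took the other sign under at least 1 alternative. The median over all genes was -0.01, or 0.01 with centred arrays. With the replicate number as a block, the calls were 118 for 1 h against untreated (186 without it), 50 for 1 h against 30 min (117) and 227 for 2 h against 1 h (354), and all 118 were among the 186. The labels do not say whether same-numbered arrays were handled together. Between 1 h and untreated, deviations of same-numbered arrays from their group means correlated at 0.06, 0.06 and -0.02. Those of differently numbered arrays correlated at -0.09 to 0.05. With 3 arrays a group, such correlations cannot decide whether the number marks a batch. Array weights gave 292, 217 and 700 calls. A minimum of 1.5-fold gave 49, 24 and 47. Fitting only the compared arrays gave 130, 19 and 220. Leaving out a replicate number or a single array gave 35 to 143 calls for 1 h against untreated, 2 to 88 for 1 h against 30 min and 31 to 257 for 2 h against 1 h. The other settings stayed within 1.5 times of each count: 163 to 198, 82 to 140 and 309 to 462. Centring each array on its median gave 94 higher and 69 lower genes at 1 h against untreated (89 and 97), and 39 higher and 43 lower against 30 min (35 and 82), where quantile normalisation gave 45 and 60. The causes were not tested. Of 66 called genes chosen by the rules given above, not all of them described, 36 kept the call without each of the 6 arrays and 18 without each replicate number. Called genes named for other reasons, such as Rap2a, Spry4, Hk2 and Rgs2, are not among them. With 3 arrays a group a change that missed the threshold is not shown to be absent.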

Other observations

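Zinc finger genes with a Zfp number, a group chosen after its values were seen and therefore not tested, lay slightly below the rest at 1 h. Of 342 such genes, 3 were called higher and 12 lower, against 0.474% and 0.516% of all genes. A change below 0 was found in 66.1% of them (median -0.06), against 54.8% of all genes (median -0.01). With arrays centred on their medians the shares were 58.8% of these genes and 46.0% of all genes, and with quantile normalisation 61.1% and 50.3%.

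Among genes with a further probe set, Ifrd1, a transcriptional coregulator of differentiation, rose by 0.54 on the set kept, and its dimmer set, with a mean level of 4.19, did not pass the test (adjusted p = 0.249 over probe sets). The probe set shared by Fitm2, which is needed for lipid droplet growth, and 2310001K24Rik was higher by 0.35 (adjusted p = 0.037 over probe sets).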
